A study of Mus musculus with 3 samples.

Results

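The 10 genes described here were grouped as NF-kB feedback inhibitors and cytokine-limiting genes, with the cytokine gene Tnf. They are Nfkbia, Nfkbiz, Tnfaip3, Zfp36, Zfp36l1, Zfp36l2, Socs3, Dusp1, Nfkb1 and Tnf. They were chosen by symbol, all 10 were present, and they are 10 of the 27998 genes counted. They were read in CD11b+ cells (CD11b is an integrin chain of myeloid cells) enriched with magnetic beads from fetal mouse brain at embryonic day 18.5, in 3 droplet libraries that count 3' ends of mRNA with unique molecular identifiers (UMIs). The groups were Gzmb-cko with poly(I:C), of genotype Ncr1-cre;gzmbf/f, then Ncr1-cre with poly(I:C), and Ncr1-cre with saline. All groups carry Ncr1-cre, a Cre driver of natural killer and related innate lymphoid cells, so the floxed gene is not aimed at the myeloid cells measured. Poly(I:C), an artificial double-stranded RNA, imitates viral infection. Each group of pregnant mice gave 1 library. The labels leave unsaid how many fetuses were pooled, the dose and day of injection, and whose genotype is meant, the dam's or the fetus's. No Gzmb-cko library with saline was analysed here, so genotype and response to poly(I:C) cannot be told apart in the Gzmb-cko library. With 1 library a group there is no test of any difference between groups: intervals are 95% and cover counting error only.

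NF-kB is a family of transcription factors that waits in the cytoplasm bound to inhibitors. When a receptor for TNF, interleukin-1 or microbial products fires, a kinase complex marks the inhibitor for destruction, the factor enters the nucleus, and among the genes it switches on are those that end the response. TNF mRNA itself is short-lived because AU-rich elements in its 3' end recruit the zinc-finger proteins of the Zfp36 family. Microglia, the resident macrophages of the brain, use these brakes to keep cytokine output low.

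Nfkbia (chr12:55489410-55492647) encodes IkBa, an inhibitor that NF-kB itself renews. Nfkbiz (chr16:55811375-55838899) encodes the nuclear IkBz, which helps transcribe secondary response genes, and Tnfaip3 (chr10:19000910-19015657) encodes A20, a ubiquitin-editing enzyme that shuts off signalling below TNF and Toll-like receptors. Zfp36 (chr7:28376784-28380253), Zfp36l1 (chr12:80107754-80113013) and Zfp36l2 (chr17:84183931-84187947) encode tristetraprolin and its relatives, which bind AU-rich elements and speed mRNA decay. Socs3 (chr11:117966079-117970047) blocks cytokine receptor signalling through JAK kinases, and Dusp1 (chr17:26505590-26562128) is a phosphatase of p38 and JNK. Nfkb1 (chr3:135584655-135691547) encodes the p105 precursor and the p50 subunit, and Tnf (chr17:35199381-35202007) is the cytokine. All 10 lie on the minus strand, in coordinates of GRCm38 from GENCODE vM21. Dusp1 and Nfkb1 overlap other genes on their own strand (AC122252.1 and AC122252.4 with Dusp1, Gm43430 with Nfkb1), and how reads from the shared bases were assigned is not known. UMIs were not scaled for transcript length, so levels are compared within a gene and not between genes.

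The AU-rich elements that the Zfp36 family binds are shown first, because Tnf and its repressors share them. The heptamer TATTTAT, written as DNA, was searched on the transcript strand of the 3' UTR, with overlapping matches counted. Of 21024 annotated 3' UTRs, 25.6% held at least 1. In the lines below, each at most 30 bases long and read from GENCODE vM21 transcripts, capitals mark the heptamers.
Tnf: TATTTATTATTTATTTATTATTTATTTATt
Zfp36: TATTTATgacgacttTATTTATtgtattaa
Socs3: TATTTATATTTATactcagaaaagaaacat
Nfkbia: TATTTATtgtgcttttgattgaaccaccat
Dusp1: TATTTATttaacacccccctcaccccccaa

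The Tnf 3' UTR of 764 bases held 8 heptamers, 5 of them in the stretch shown. Among 2704 3' UTRs of similar length, Tnf included, 0.037% held as many, which is the share of Tnf alone. The shares given for the other genes likewise include the gene itself. Zfp36, which encodes the protein that binds such sites, carried 3 in 774 bases, and 1.18% of 3' UTRs of like length had as many. Dusp1 also had 3, in 690 bases (1.3% of like length), and Zfp36l1 and Zfp36l2 had 3 each in 1835 and 1822 bases (3.95% and 3.98%). Nfkbia had 2 (3.15%), Tnfaip3 2 (13.2%) and Socs3 2 (11.4%). No heptamer lay in the annotated 3' UTRs of Nfkbiz and Nfkb1. A match describes letters and is not by itself a binding site.

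Promoter windows from RefSeq (GRCm38.p6, 250 bases before to 50 after a start site) were matched for 7 of the 10 genes: Nfkbia, Tnfaip3, Zfp36, Zfp36l1, Socs3, Dusp1 and Tnf. Nfkbiz, Zfp36l2 and Nfkb1 had no entry. Each window was searched on both strands for the NF-kB consensus, the cyclic AMP response element TGACGTCA and the AP-1 site (TGACTCA or TGAGTCA); matches of different motifs did not overlap in the windows shown. Of 32544 windows, 8.49% held the first, 1.8% the second and 5.19% the third. The 3 windows that held a match follow, as the ones on which the letters bear. Capitals mark matches, and all 3 are read 5' to 3' on the minus strand.
Nfkbia, chr12:55492598-55492897: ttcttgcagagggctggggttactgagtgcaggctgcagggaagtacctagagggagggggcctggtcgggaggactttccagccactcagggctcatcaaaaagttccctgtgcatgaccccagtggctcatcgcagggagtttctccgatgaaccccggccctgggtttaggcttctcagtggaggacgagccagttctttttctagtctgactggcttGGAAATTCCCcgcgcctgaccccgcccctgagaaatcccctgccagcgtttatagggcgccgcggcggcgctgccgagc
Tnfaip3, chr10:19015361-19015660: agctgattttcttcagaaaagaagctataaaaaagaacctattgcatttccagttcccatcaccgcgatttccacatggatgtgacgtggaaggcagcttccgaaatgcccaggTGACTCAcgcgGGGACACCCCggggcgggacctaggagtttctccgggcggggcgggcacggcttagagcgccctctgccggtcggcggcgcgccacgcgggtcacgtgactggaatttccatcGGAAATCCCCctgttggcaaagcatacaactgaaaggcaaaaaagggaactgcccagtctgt
Dusp1, chr17:26508423-26508722: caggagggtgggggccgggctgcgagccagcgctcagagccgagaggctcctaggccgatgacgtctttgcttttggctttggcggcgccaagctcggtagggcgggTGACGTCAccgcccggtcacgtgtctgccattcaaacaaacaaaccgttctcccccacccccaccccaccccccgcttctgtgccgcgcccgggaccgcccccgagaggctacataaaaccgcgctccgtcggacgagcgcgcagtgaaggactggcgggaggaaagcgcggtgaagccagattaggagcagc

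In Nfkbia the NF-kB match began 29 bases before the start site. In Tnfaip3, of which a second window had no match, NF-kB matches began 125 and 12 bases before it and an AP-1 match 136 bases before it. In Dusp1 the cyclic AMP element began 143 bases before it. The windows of Zfp36, Zfp36l1, Socs3 and Tnf held none of these letters.

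The libraries held 15306, 14887 and 13820 barcodes for Gzmb-cko poly(I:C), Ncr1-cre poly(I:C) and Ncr1-cre saline, with 105574073, 85442198 and 89295907 UMIs. The lowest barcode had 500 UMIs in each poly(I:C) library and 3133 in the saline library, so lower limits on depth differed between libraries. Cells with at least 500 genes and at most 10% mitochondrial UMIs numbered 13447, 10759 and 12148. Between 63 and 71 barcodes were shared by any pair of libraries. Gzmb, the deleted gene, had 2 UMIs in 1 kept cell of the Gzmb-cko library, against 127 UMIs in 6 cells with Ncr1-cre and poly(I:C) and 61 UMIs in 4 cells with saline; Ncr1 UMIs numbered 0, 6 and 8. With so few cells that hold Gzmb UMIs, the deletion is hardly checked.

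Cells were gated by single markers. The microglia gate (P2ry12 present, Mrc1 absent) took 5399 Gzmb-cko, 4519 Ncr1-cre poly(I:C) and 5452 saline cells, with median depths of 5780, 5176 and 4809 UMIs. The border macrophage gate (Mrc1 and Pf4) took 1896, 686 and 1125 cells, the monocyte gate (Ccr2 and Ly6c2) 465, 510 and 718, and the neutrophil gate (at least 20 UMIs each of S100a8 and S100a9) 212, 562 and 543. A cell could meet more than 1 gate: 98, 96 and 196 microglia-gate cells also met the monocyte gate. All 8 microglia markers, summed, reached 11210, 11270 and 8737 CPM (UMIs scaled to a common total of the gate) in the microglia gate. The same markers summed to 7158, 7179 and 6325 CPM in the border macrophage gate, so that gate is not free of microglial RNA. Other cells' RNA was also present in the microglia gate and differed between libraries. The 6 erythroid markers summed to 25340, 54510 and 97690 CPM, the 10 neutrophil markers to 1710, 2757 and 4939 CPM, and the 4 choroid plexus markers to 3962, 9782 and 10750 CPM, each with every marker detected. All 3 sums were lowest in Gzmb-cko and highest in saline. Cells with at least 3 of 7 further microglia markers, under 1% hemoglobin and under 1% Ttr UMIs made up 90.2%, 85.4% and 79.0% of the gate, and results are given for them too. Fewer expressing cells and less RNA per cell cannot be told apart in summed values.

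In the microglia gate all 10 genes were higher with poly(I:C) than with saline in the Ncr1-cre libraries, and Zfp36 differed most. Zfp36, the main repressor of TNF mRNA, had 432.6 CPM in Gzmb-cko, 531.2 CPM in Ncr1-cre poly(I:C) and 245.5 CPM in saline microglia. Poly(I:C) over saline was 2.16-fold (interval 2.11 to 2.22), with Zfp36 UMIs in 72.5% of Ncr1-cre poly(I:C) cells and 65.9% of saline cells. The relatives differed less. Zfp36l1 had 589.7, 708.5 and 469.9 CPM in Gzmb-cko, Ncr1-cre poly(I:C) and saline, a poly(I:C) over saline ratio of 1.51 (1.48 to 1.54). Zfp36l2 had 185.2, 232.6 and 162.2 CPM, a ratio of 1.43 (1.38 to 1.49). For each of these 3 genes the poly(I:C) intervals lay above those of saline, with Gzmb-cko between the Ncr1-cre libraries.

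Socs3, the feedback brake on cytokine receptors, stood at 45.2 CPM in Gzmb-cko, 57.95 CPM in Ncr1-cre poly(I:C) and 29.8 CPM in saline microglia. Its ratio of poly(I:C) over saline was 1.95 (1.80 to 2.11). Tnfaip3, the ubiquitin-editing brake, stood at 17.3, 25.3 and 14.3 CPM in that order of libraries, a ratio of 1.77 (1.57 to 1.99). Dusp1, the MAP kinase phosphatase, had 150.0, 178.5 and 114.1 CPM, a ratio of 1.57 (1.499 to 1.63). In each of these genes too the Gzmb-cko level lay between those of the Ncr1-cre libraries.

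The genes of the NF-kB core differed least. Nfkbia had 78.4 CPM in Gzmb-cko, 89.2 CPM in Ncr1-cre poly(I:C) and 74.3 CPM in saline microglia, and poly(I:C) over saline was 1.2 (1.13 to 1.27). Nfkb1 had 85.2, 100 and 79.05 CPM, a ratio of 1.27 (1.198 to 1.34), and Nfkbiz 50.2, 59.0 and 44.7 CPM, a ratio of 1.32 (1.23 to 1.42). These ratios lay above 1 but little above the ratio of a typical gene in this comparison, given next.

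**Figure D1:**
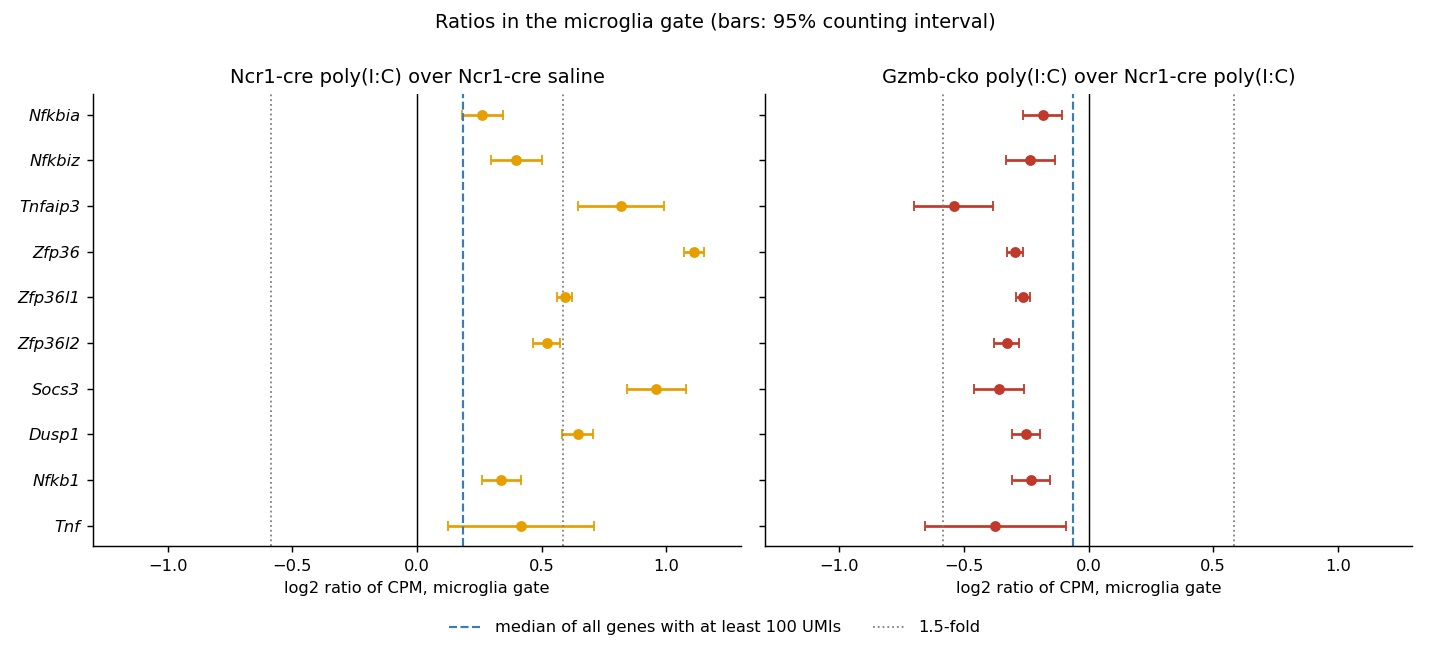
Log2 ratio of CPM in the microglia gate (x axis) for each of the 10 genes (y axis), Ncr1-cre poly(I:C) over Ncr1-cre saline on the left and Gzmb-cko poly(I:C) over Ncr1-cre poly(I:C) on the right, with 95% counting intervals as bars. The dashed line is the median of all genes with at least 100 UMIs (0.19 on the left, -0.06 on the right) and dotted lines mark 1.5-fold; all 10 points lie right of 0 on the left and left of 0 on the right.

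A ratio of at least 1.5 among genes with at least 100 UMIs over both libraries was counted as past the fold. Of the 10 genes 5 were that much higher in Ncr1-cre poly(I:C) microglia than in saline microglia (Zfp36, Socs3, Tnfaip3, Dusp1 and Zfp36l1), where 7.35% of 11445 genes were; 0 were that much lower, where 1.95% of genes were. The median log2 ratio was 0.56 for the 10 genes, 0.19 for all genes and 0.20 for the 8334 genes with transcripts of like length, and 75.4% of all genes were above 1. Under TMM scaling, which centres most genes near no change by its construction, the median of all genes was 0.00 and that of the 10 genes 0.37, with Zfp36, Socs3 and Tnfaip3 still past 1.5-fold. The shares of all genes past the fold were then 2.71% higher and 3.87% lower. In the cells with 3 further microglia markers, Zfp36 stood at 459.8 CPM in Gzmb-cko, 599.6 CPM in Ncr1-cre poly(I:C) and 281.5 CPM in saline. Of the 10 genes 4 were at least 1.5-fold higher there in poly(I:C) over saline and 0 lower. Of all genes in those cells 4.82% were higher and 2.93% lower. Zfp36 thus kept the order of the whole gate, while Nfkb1 had 89.1 CPM in Gzmb-cko, 109.6 CPM in Ncr1-cre poly(I:C) and 91.6 CPM in saline, with Gzmb-cko lowest.

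The difference was smaller in cells with no Fos UMI. Fos encodes an AP-1 factor induced within minutes of many stimuli, handling of cells included. Microglia-gate cells without a Fos UMI were 23.2% of the gate in Gzmb-cko, 26.4% in Ncr1-cre poly(I:C) and 24.7% in saline, with median depths of 4596, 2979 and 4574 UMIs. In those cells 0 of 9 genes with enough UMIs passed 1.5-fold in poly(I:C) over saline, where 5.71% of all genes were that much higher and 2.88% lower, and the median log2 ratio was 0.17 for those 9, against 0.12 for all genes. Zfp36 kept a smaller difference there: 221.7 CPM in Ncr1-cre poly(I:C) and 158.3 CPM in saline, a ratio of 1.40 (1.29 to 1.52). Zfp36l1 was level at 342.2 and 351.4 CPM, a ratio of 0.974 (0.915 to 1.04), and so was Zfp36l2 at 128.2 and 127.9 CPM. Dusp1 had 41.1 CPM in Ncr1-cre poly(I:C) and 55.0 CPM in saline, a ratio of 0.748 (0.627 to 0.888), the opposite direction. With 3 further microglia markers and no Fos UMI, Tnfaip3 was at 1.56 (1.06 to 2.30). In cells with a Fos UMI Dusp1 had 207.7 CPM in Ncr1-cre poly(I:C) and 132.1 CPM in saline (ratio 1.57). Early-response and heat shock genes summed to 7035, 8213 and 5600 CPM over the whole gate in Gzmb-cko, Ncr1-cre poly(I:C) and saline, in the order of the 10 genes. Of these 22 genes 8 were at least 1.5-fold higher and 0 lower in poly(I:C) over saline, where 7.35% and 1.95% of all genes were. Their median log2 ratio was 0.48, and Fos itself was 2.18-fold higher. Under TMM scaling 5 were higher and 1 lower, where 2.71% and 3.87% of all genes were. In Gzmb-cko over Ncr1-cre 1 was higher (Hspa1b, 1.78-fold) and 1 lower (Hsph1, 0.585-fold), where 0.796% and 6.54% of all genes were. Under TMM scaling 2 were higher and 1 lower there, where 1.38% and 5.0% were. The part of early-response and heat shock genes in the levels of the 10 genes was not tested.

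**Figure D2:**
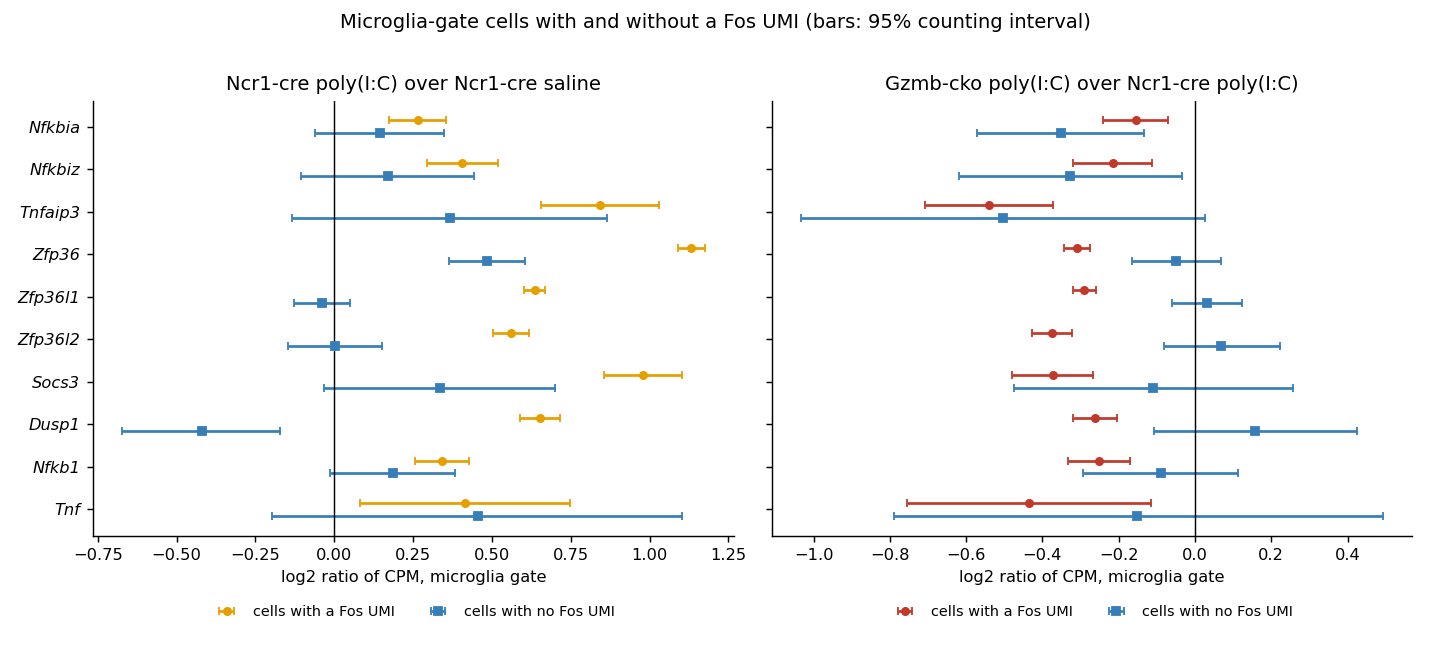
Log2 ratio of CPM (x axis) for each of the 10 genes (y axis) in microglia-gate cells with a Fos UMI (circles) and with none (blue squares), for Ncr1-cre poly(I:C) over saline on the left and Gzmb-cko over Ncr1-cre, both with poly(I:C), on the right; bars are 95% counting intervals. In cells with no Fos UMI, Zfp36 alone has an interval wholly above 0 on the left, and Dusp1 lies below 0.

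Under poly(I:C), all 10 genes were lower in Gzmb-cko than in Ncr1-cre microglia, by less than 1.5-fold. Tnfaip3 differed most, at 17.3 CPM in Gzmb-cko and 25.3 CPM in Ncr1-cre, a ratio of 0.687 (0.615 to 0.767). Tnf followed at 0.772 (0.634 to 0.939), and Socs3 at 0.780 (0.727 to 0.836). The rest of the ratios ran from 0.796 for Zfp36l2 to 0.880 for Nfkbia, and every interval excluded 1. None of the 10 passed the fold in either direction, where 0.796% of 11435 genes were higher and 6.54% lower. The median log2 ratio was -0.28 for the 10 genes and -0.06 for all genes, or -0.18 and 0.04 under TMM scaling. In the cells with 3 further microglia markers Tnfaip3 had 18.6 CPM in Gzmb-cko, 28.6 CPM in Ncr1-cre poly(I:C) and 15.4 CPM in saline. Tnfaip3 was then past 1.5-fold lower in Gzmb-cko, the 1 gene of 10, where 4.29% of all genes were. Both comparisons share the library of Ncr1-cre with poly(I:C), so a value that is high in that library alone enters both. Cells without a Fos UMI gave ratios near 1 for Zfp36 (0.967, interval 0.892 to 1.05), Zfp36l1 (1.02) and Zfp36l2 (1.05). In the same cells Nfkbia stayed at 0.783 (0.673 to 0.912) and Nfkbiz at 0.797 (0.651 to 0.976). Markers of sex differed as well: cells with Xist UMIs and no Y-linked UMI were 32.0% of the gate in Gzmb-cko, 47.8% in Ncr1-cre poly(I:C) and 41.3% in saline. Within such cells, and within cells with Y-linked UMIs only, all 10 genes kept the direction of both comparisons.

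How many of the genes single microglia held was read after thinning each cell to 2000 UMIs, which kept 5230 Gzmb-cko, 4074 Ncr1-cre poly(I:C) and 5452 saline cells. A cell then held UMIs of 2.2 of the 10 genes on average in Gzmb-cko, 2.47 in Ncr1-cre poly(I:C) and 1.89 in saline. Cells with 5 or more were 5.74%, 9.33% and 2.7%, and cells with none were 12.6%, 11.1% and 14.3%. The 10 genes together took 0.185% of UMIs in Gzmb-cko, 0.232% in Ncr1-cre poly(I:C) and 0.139% in saline.

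Tnf was scarce everywhere. In microglia it had 5.91 CPM in Gzmb-cko, 7.66 CPM in Ncr1-cre poly(I:C) and 5.74 CPM in saline, from 213, 206 and 187 UMIs. Poly(I:C) over saline was 1.34 (1.09 to 1.64). Tnf UMIs were found in 3.09% (2.65 to 3.59%) of Gzmb-cko microglia, 3.3% (2.8 to 3.86%) of Ncr1-cre poly(I:C) microglia and 2.93% (2.5 to 3.42%) of saline microglia, intervals that overlap (exact Clopper-Pearson). Thinned, the shares were 1.19%, 1.5% and 1.06%. Neurons, which should lack Tnf, had it in 0 of 93, 0 of 283 and 0 of 76 cells at median depths of 4636, 4683 and 4306 UMIs, which allows shares of up to 3.89%, 1.3% and 4.74%. Erythroid cells had it in 2.22%, 0 and 1.26%. With Ncr1-cre and poly(I:C) the microglial interval lay above the neuronal one but overlapped the erythroid one, which reached 3.27% from 0 of 111 cells. The Gzmb-cko and saline neurons were too few to separate them, and the erythroid intervals there reached 11.8% and 3.62%, across the microglial share. The 1% of microglia with most Tnf held 46.9% of its UMIs in Gzmb-cko, 49.5% in Ncr1-cre poly(I:C) and 43.9% in saline. For Tnfaip3, also scarce, that share was 19.2%, 18.7% and 22.5%, and for the far more abundant Zfp36 4.73%, 5.2% and 5.79%. Such a share rises as UMIs become fewer, so it cannot separate concentration in few cells from scarcity.

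Microglia with a Tnf UMI, 167 in Gzmb-cko, 149 in Ncr1-cre poly(I:C) and 160 in saline, carried more Nfkbia and Nfkbiz in every library. Nfkbia had 189.1 CPM in Tnf-positive and 74.3 CPM in Tnf-negative cells of Gzmb-cko, 2.54-fold (2.22 to 2.90). In Ncr1-cre poly(I:C) it had 174.9 and 85.4 CPM, 2.05-fold (1.76 to 2.37), and in saline 169.1 and 70.8 CPM, 2.39-fold (2.06 to 2.76). Nfkbiz was 1.58-fold, 1.68-fold and 2.06-fold higher in Tnf-positive cells of the 3 libraries, and all of these intervals lay above 1. Thinned to 2000 UMIs a cell, Nfkbiz was at 3.2, 1.75 and 3.35, and the interval with Ncr1-cre and poly(I:C) (0.953 to 2.97) then included 1. For Nfkbia the difference between Tnf-positive and Tnf-negative cells of 1 library exceeded that of poly(I:C) over saline (1.2-fold). For Nfkbiz the values as deposited did too, but with overlapping intervals in both poly(I:C) libraries. Those were 1.275 to 1.93 in Gzmb-cko and 1.37 to 2.04 in Ncr1-cre poly(I:C), against 1.23 to 1.42 for poly(I:C) over saline.

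The Zfp36 family differed less: the Zfp36 ratio of Tnf-positive over Tnf-negative cells was 0.990 (0.908 to 1.08) in Gzmb-cko, 0.947 (0.869 to 1.03) in Ncr1-cre poly(I:C) and 1.15 (1.03 to 1.29) in saline. Thinned, it was 0.895 (0.677 to 1.16) in Gzmb-cko, 1.251 (1.01 to 1.53) in Ncr1-cre poly(I:C) and 1.44 (1.06 to 1.92) in saline, so the values with and without thinning lay on opposite sides of 1 with Ncr1-cre and poly(I:C). Zfp36l2 was at 1.03, 1.27 and 1.19, with intervals above 1 in both Ncr1-cre libraries. Thinned, Zfp36l2 was at 1.01, 1.06 and 1.07, with intervals that include 1. Zfp36l1 stood at 0.939, 0.874 and 0.932, and Dusp1 at 1.14, 1.01 and 0.826. Nfkb1 was at 1.2, 1.24 and 1.13 as deposited, above 1 by its interval with Ncr1-cre and poly(I:C) only. Thinned, Nfkb1 was at 1.71 (1.02 to 2.68), 1.78 (1.13 to 2.66) and 0.987 (0.472 to 1.82). Tnfaip3 was at 1.41, 1.36 and 1.27 with intervals that include 1, from 31, 38 and 21 UMIs in Tnf-positive cells. Socs3 was at 1.52 (1.21 to 1.89) in Gzmb-cko, 1.23 in Ncr1-cre poly(I:C) and 1.24 in saline, with intervals that include 1 in both Ncr1-cre libraries. Of chemokine and cytokine genes, Ccl4 was 5.75-fold, 4.22-fold and 4.38-fold higher in Tnf-positive cells, Ccl3 1.88-fold, 1.70-fold and 1.51-fold, and Il1b 2.21-fold, 6.15-fold and 5.53-fold. Thinned, Ccl4 was 10.3-fold, 7.45-fold and 11.1-fold higher and Ccl3 2.23-fold, 1.87-fold and 2.45-fold. Il1b was then at 1.26 (0.0315 to 7.29, from 1 UMI in Tnf-positive cells) in Gzmb-cko, 7.0 in Ncr1-cre poly(I:C) and 22.4 in saline. Fos was lower in Tnf-positive cells as deposited, at 0.879, 0.809 and 0.879. Thinned, Fos was at 0.959 (0.779 to 1.17), 0.988 (0.834 to 1.16) and 0.817 (0.6115 to 1.07), with intervals that include 1 in every library. Tnf-positive cells were deeper in UMIs, at a median of 6936 against 5750 in Tnf-negative cells of Gzmb-cko. Thinned to 2000 UMIs, Nfkbia remained 2.17-fold, 2.30-fold and 3.77-fold higher in Tnf-positive cells, each interval above 1. In cells with 3 further microglia markers it was 2.62-fold, 1.88-fold and 2.51-fold higher. Over 8 alternatives of this split the lowest values were 2.17, 1.72 and 2.10 for Nfkbia and 1.499, 1.31 and 1.92 for Nfkbiz. P2ry12, the marker of the gate, was at 0.944, 0.720 and 0.810 as deposited, with intervals below 1. Thinned, P2ry12 was at 0.898, 0.900 and 0.963, with intervals that include 1. Tmem119, another microglia marker, had intervals that include 1 in every library.

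**Figure D3:**
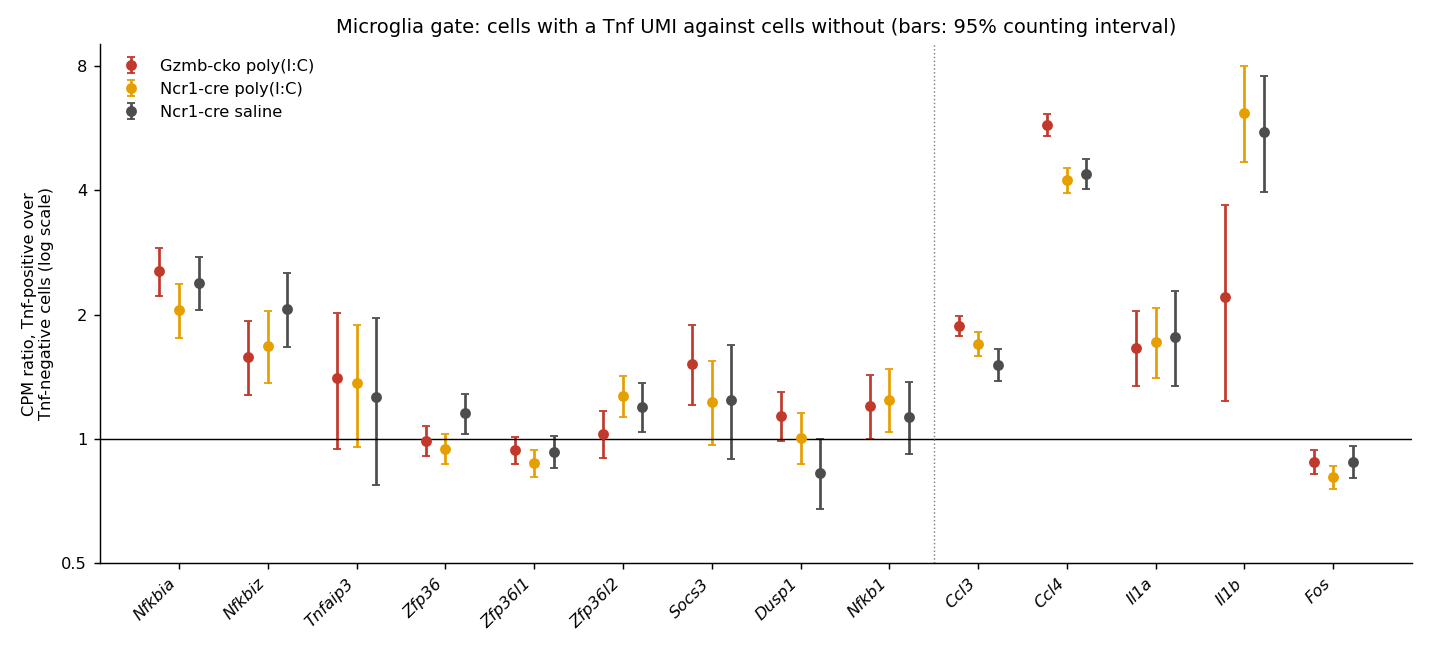
Ratio of CPM in microglia-gate cells with a Tnf UMI over cells without one (y axis, log scale) for 9 of the genes and, right of the dotted line, Ccl3, Ccl4, Il1a, Il1b and Fos (x axis), in the 3 libraries; bars are 95% counting intervals. Nfkbia and Nfkbiz lie above 1 in all 3 libraries, from 1.58 to 2.54, Zfp36 and Zfp36l1 lie between 0.87 and 1.15, and Ccl4 lies above 4.

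Across thinned microglia, the 5 genes most correlated with Tnf among 4495 genes were Ccl4, Ccl12, Ccl2, Nfkbiz and Cd52, at a median Pearson r over the libraries of only 0.138, 0.114, 0.0683, 0.0674 and 0.0597. Those of Nfkbiz were Malat1, Jun, Egr1, Zfp36 and Btg2, at 0.112 or less. For Zfp36 they were Jun (0.353), Malat1 (0.335), Junb (0.322), Fos (0.316) and Jund (0.306), over 5230 Gzmb-cko, 4074 Ncr1-cre poly(I:C) and 5452 saline cells. In saline alone these 5 lay between 0.153 and 0.216. Cells of a library share handling and depth, and values this low in sparse counts describe the cells only.

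Between cell classes each gene had its own order. Zfp36l1 was higher in both macrophage gates: its ranges over the 3 libraries were 559.2 to 893.9 CPM in border macrophages and 469.9 to 708.5 CPM in microglia, against 241.4 to 300.3 CPM in monocytes and 222.4 to 262.5 CPM in neutrophils. Tnfaip3 was likewise at 14.3 to 25.3 CPM in microglia and 12.1 to 20.75 CPM in border macrophages, against 6.59 to 10.3 CPM in monocytes and 6.93 to 12.8 CPM in neutrophils, the last overlapping with border macrophages. Nfkbia ran the other way, with 135.5 to 166.4 CPM in neutrophils and 120.9 to 136.7 CPM in monocytes, against 79.65 to 88.7 CPM in border macrophages and 74.3 to 89.2 CPM in microglia. Neutrophil and monocyte ranges of Nfkbia overlapped, as did those of both macrophage gates.

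Zfp36l2 was highest in monocytes in each library, at 380.1 CPM in Gzmb-cko, 429.7 CPM in Ncr1-cre poly(I:C) and 266.2 CPM in saline. Nfkbiz was highest in border macrophages, at 72.95, 118.8 and 52.6 CPM, though in Gzmb-cko its interval overlapped that of neutrophils. Socs3 was lowest in border macrophages, at 21.4, 26.8 and 17.7 CPM, though in saline its interval overlapped that of neutrophils. Nfkb1 lay between 68.3 CPM in saline neutrophils and 106.5 CPM in Ncr1-cre poly(I:C) monocytes. For Zfp36 and Dusp1 the ranges of the gates over the 3 libraries overlapped. Within each library Dusp1 was lowest in microglia, at 150.0, 178.5 and 114.1 CPM, though in saline its interval overlapped that of neutrophils.

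**Figure D4:**
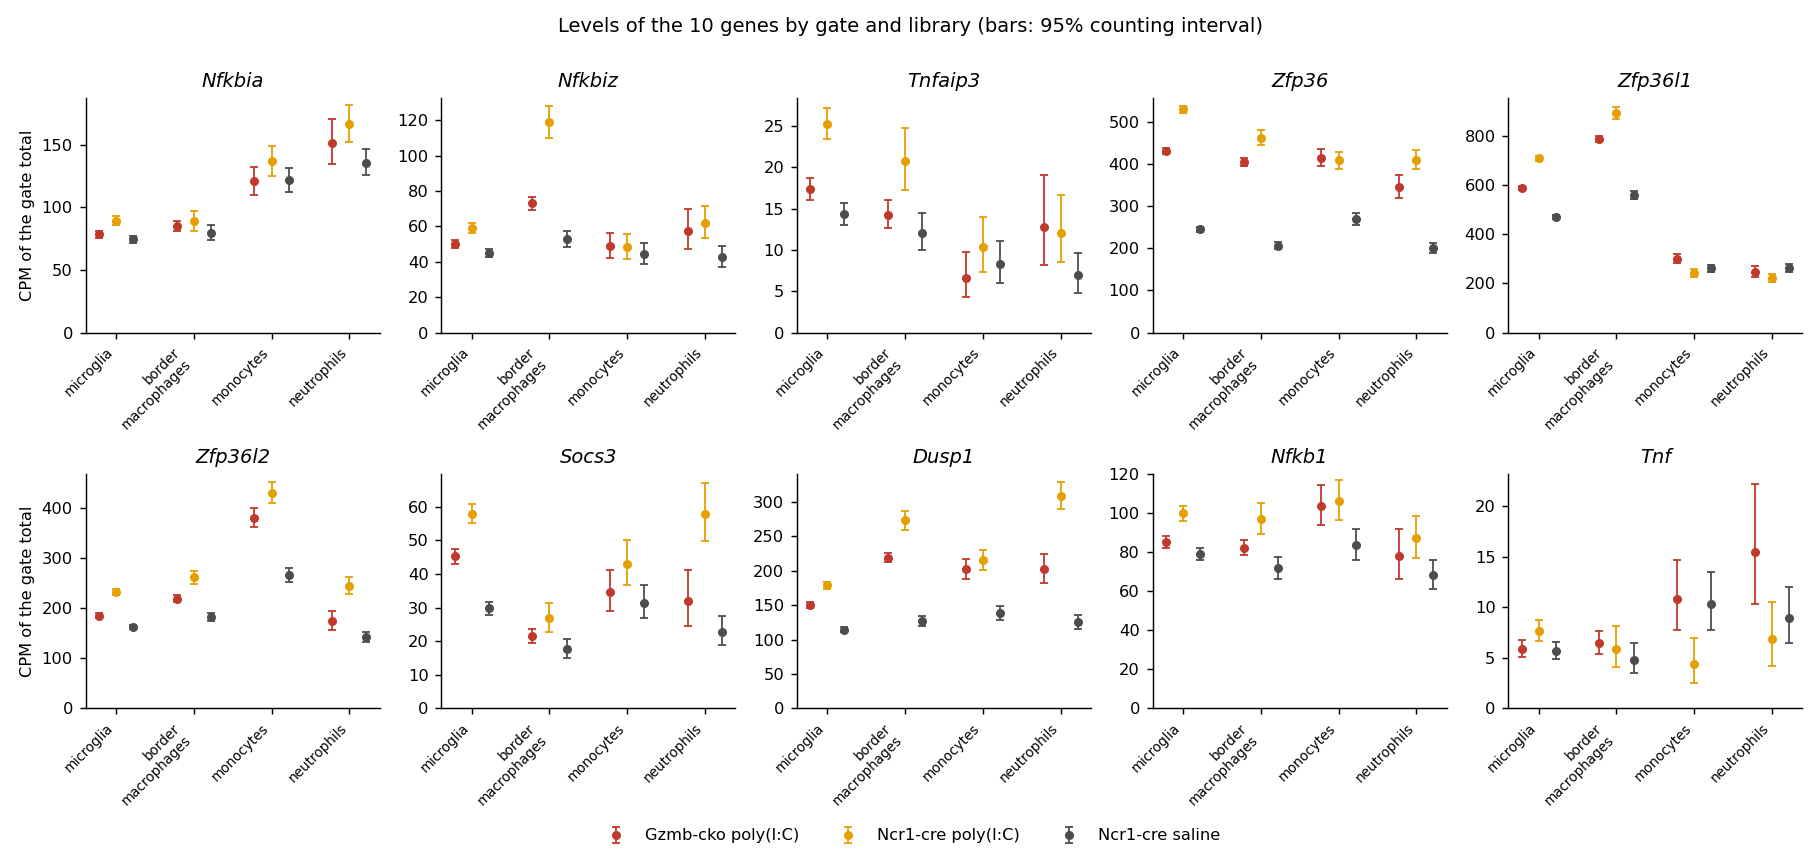
CPM of the gate total (y axis, from 0) for each of the 10 genes (panels) in the microglia, border macrophage, monocyte and neutrophil gates (x axis) of the Gzmb-cko poly(I:C), Ncr1-cre poly(I:C) and Ncr1-cre saline libraries; bars are 95% counting intervals. Zfp36l1 is high in both macrophage gates, Nfkbia in monocytes and neutrophils, and Zfp36 is lowest in saline in every gate.

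In border macrophages 6 of 9 genes with enough UMIs were at least 1.5-fold higher in Ncr1-cre poly(I:C) than in saline, where 10.5% of genes were, and 0 were that much lower, where 2.2% of genes were. Nfkbiz differed most, at 118.8 CPM in Ncr1-cre poly(I:C) and 52.6 CPM in saline, 2.26-fold (2.01 to 2.54). That is more than its 1.32-fold in microglia, with intervals that do not overlap; the difference between gates itself has no test. Zfp36 was at 2.24-fold and Dusp1 at 2.16-fold. Under TMM scaling 3 of the 9 were past the fold, Nfkbiz (1.94-fold), Zfp36 (1.93-fold) and Dusp1 (1.85-fold), where 3.9% of genes were higher, and Tnfaip3, Zfp36l1 and Socs3 were not. Under poly(I:C), Nfkbiz was lower in Gzmb-cko border macrophages than in Ncr1-cre ones, at 73.0 and 118.8 CPM, a ratio of 0.614 (0.561 to 0.673). It was the 1 gene of 10 past the fold there, where 4.98% of genes were lower and 1.55% higher, and under TMM scaling (0.668) it was not past the fold. Erythroid markers in this gate summed to 9173, 40580 and 61440 CPM in Gzmb-cko, Ncr1-cre poly(I:C) and saline, and their part was not tested.

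In neutrophils, 4 of 8 genes with enough UMIs were past the fold in Ncr1-cre poly(I:C) over saline: Socs3 at 2.54-fold (1.99 to 3.24), Dusp1 at 2.46-fold (2.22 to 2.73), Zfp36 at 2.05-fold and Zfp36l2 at 1.72-fold. Of all genes 18.2% were that much higher and 10.2% lower. In Gzmb-cko over Ncr1-cre, both with poly(I:C), Socs3 had 32.0 and 57.9 CPM (0.553, interval 0.405 to 0.745), and Dusp1 202.1 and 308.7 CPM (0.655, interval 0.580 to 0.738), and 0 of 8 were past the fold upward; 6.74% of genes were that much lower and 17.5% higher. Under TMM scaling the same 4 genes were past the fold in poly(I:C) over saline, where 16.4% of genes were higher and 11.3% lower. In Gzmb-cko over Ncr1-cre Zfp36l2 (0.608) joined Socs3 (0.469) and Dusp1 (0.556), but 16.2% of genes were then lower and 6.86% higher. The neutrophil gates also held microglia markers, summed to 3679, 2001 and 2899 CPM.

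In monocytes, 3 of 8 genes were past the fold in Ncr1-cre poly(I:C) over saline, Zfp36l2 at 1.61-fold, Dusp1 at 1.56-fold and Zfp36 at 1.52-fold, where 13.6% of genes were; 0 were that much lower, where 4.4% were. Under TMM scaling these stood at 1.42-fold, 1.38-fold and 1.34-fold, and 0 of 8 were past the fold, where 5.09% of genes were higher and 7.05% lower. In Gzmb-cko over Ncr1-cre 0 of 8 passed, where 3.13% of genes were higher and 3.35% lower, and Zfp36 was level at 415.7 and 409.4 CPM. Tnf in monocytes rested on few UMIs: 41 in Gzmb-cko (10.8 CPM), 17 in Ncr1-cre poly(I:C) (4.39 CPM) and 54 in saline (10.4 CPM). In neutrophils there were 29, 21 and 44 Tnf UMIs, or 15.5, 6.87 and 8.97 CPM. Border macrophages had 6.44, 5.90 and 4.84 CPM of Tnf with overlapping intervals.

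Other genes of the pathway were read in microglia from fixed lists, where 7.35% of all genes were past the fold upward and 1.95% downward in poly(I:C) over saline, and 0.796% and 6.54% in Gzmb-cko over Ncr1-cre. Of 18 further inhibitors of NF-kB, 0 passed 1.5-fold in either direction and either comparison; with poly(I:C) over saline their median on the log2 scale was 0.18, against 0.19 for all genes (-0.01 and 0.00 under TMM scaling). Sigirr (1.39-fold), which damps interleukin-1 receptor signalling, and Cyld (1.37-fold), a deubiquitinase, were the furthest from 1. Of 18 cytokine-limiting genes with enough UMIs (22 listed), 3 were at least 1.5-fold higher in Ncr1-cre poly(I:C) than in saline and 0 lower, with a median of 0.28. Dusp6, a phosphatase of ERK, had 197.2 CPM in Ncr1-cre poly(I:C) and 119.0 CPM in saline, Zc3h12a, the RNase regnase-1, 15.0 and 9.42 CPM, and Atf3, a repressor of cytokine promoters, 75.6 and 49.99 CPM. Under TMM scaling 0 of the 18 were past the fold. In Gzmb-cko over Ncr1-cre 1 of 19 was lower past the fold, Socs2, at 2.997 and 4.61 CPM, and the median was -0.19; 1 of 19 is near the 6.54% of all genes, and under TMM scaling Socs2 (0.699) was not past the fold.

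Of 15 NF-kB subunits and kinases, 2 were past the fold in poly(I:C) over saline, both higher, where 7.35% of all genes were. They were Chuk, the kinase IKKa, at 1.62-fold and Relb at 1.53-fold, and the list median was 0.28. In Gzmb-cko over Ncr1-cre 0 were past the fold, where 0.796% of all genes were higher and 6.54% lower. Under TMM scaling Chuk (1.43-fold) and Relb (1.35-fold) were not past the fold. Of 8 genes that process or receive TNF, 1 was higher, Birc2, a ubiquitin ligase at the TNF receptor (1.61-fold), and 0 lower, and in Gzmb-cko over Ncr1-cre 0 were past the fold. Birc2 stood at 1.42-fold under TMM scaling and was not past it. Of 3 kinases that inactivate the Zfp36 protein, 0 passed in either comparison. Of 14 cytokine and chemokine genes that NF-kB can induce, 5 were higher and 1 lower in poly(I:C) over saline, led by Ccl2 with 122.1 CPM in Ncr1-cre poly(I:C) and 50.2 CPM in saline, while Cxcl2 had 7.07 and 11.4 CPM. Under TMM scaling 3 were higher and 2 lower, and Ccl3 and Ccl4 were no longer past the fold. In Gzmb-cko over Ncr1-cre 4 of the 14 were lower and 0 higher: Cxcl10 (19.2 and 51.7 CPM), Il1b (5.86 and 12.9 CPM), Ccl7 (7.11 and 14.7 CPM) and Ccl2 (59.1 and 122.1 CPM), and the same 4 passed under TMM scaling. Ratios of these 4, from 0.372 to 0.484, were all further from 1 than that of any of the 10 genes in that comparison.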

How the data were processed

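The authors deposited raw UMI counts per gene and barcode. The file headers give Cell Ranger 5.0.0 as the writing software; the submitters' processing notes list Cell Ranger 3.0.1, STAR and mm10, and which version made the counts is not known. The rule that chose the deposited barcodes is not stated. The barcode and gene tables hold names only.

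The members and gene lists were chosen with earlier results of these data known. UMIs were summed per gate and library and given as CPM of the gate total. Intervals at 95% were exact (Poisson for levels, conditional binomial for ratios, Clopper-Pearson for shares). Doublets (4.66%, 2.96% and 3.77% of cells in Gzmb-cko poly(I:C), Ncr1-cre poly(I:C) and saline) were called with Scrublet in scanpy 1.11.5 and kept, then removed as an alternative. The ratio rule was tested on simulated data. TMM factors came from edgeR 4.0.16, with no count test. Thinning used a fixed seed. The named genes are every member in every gate, up to 4 of each list by size of ratio in microglia, and for Tnf, Nfkbiz and Zfp36 the 5 most correlated genes. Cxcl2 lies outside this rule and was named after its value was seen, as were the ratios of P2ry12 and Tmem119. Likeness used genes detected in at least 5% of thinned cells of every library. The 3' UTR was that of the transcript with the longest coding part. Values in cells with a Fos UMI and in cells with 3 further microglia markers were added after the data were seen.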

Additional observations from a re-analysis of the deposited data

Results flagged for a closer look

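For Tnf and Zfp36l1 the cell classes moved in opposite directions under the same comparison, with counting intervals on opposite sides of 1. The difference between classes was not tested, since each class had 1 library a group.

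For Ncr1-cre poly(I:C) over saline, Tnf was 1.34-fold (1.09 to 1.64) in microglia and 0.424-fold (0.230 to 0.742) in monocytes, the last from 17 and 54 UMIs. For Gzmb-cko over Ncr1-cre under poly(I:C) it was 0.772-fold in microglia, 2.46-fold (1.37 to 4.62) in monocytes and 2.25-fold (1.24 to 4.15) in neutrophils, from 41 and 17 UMIs and from 29 and 21 UMIs. Both comparisons use the Ncr1-cre poly(I:C) library, whose monocytes had the fewest Tnf UMIs.

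Zfp36l1 was 1.51-fold in microglia and 1.60-fold in border macrophages for poly(I:C) over saline, and 0.847-fold (0.771 to 0.930) in neutrophils. For Gzmb-cko over Ncr1-cre it was 0.832-fold in microglia and 0.883-fold in border macrophages, and 1.24-fold (1.14 to 1.36) in monocytes. Zfp36l1 is high in macrophages, and the microglia markers in the monocyte gate summed to 2567 CPM in Gzmb-cko, 1455 CPM in Ncr1-cre poly(I:C) and 2747 CPM in saline; their part was not tested.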

How the results depend on the processing

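In the microglia gate all 10 ratios of poly(I:C) over saline stayed above 1 under the 16 alternatives, except in cells with no Fos UMI for Zfp36l1 (log2 -0.038) and Dusp1 (-0.42). Those of Gzmb-cko over Ncr1-cre stayed below 1 except for Zfp36l1, Zfp36l2 and Dusp1 in the same cells. In the other gates, turns are listed first for ratios that were past 1.5-fold at the outset. Cells with no Fos UMI turned round Tnfaip3 (-0.88) and Dusp1 (-0.19) in border macrophages for poly(I:C) over saline. In monocytes they turned round Zfp36 (-0.33), Dusp1 (-1.94) and Tnf (0.84) for poly(I:C) over saline, and Tnfaip3 for Gzmb-cko over Ncr1-cre (0.050). Such monocytes numbered only 14 in Gzmb-cko, 11 in Ncr1-cre poly(I:C) and 72 in saline, so these monocyte values rest on few cells. Cells with Y-linked UMIs only turned round Tnf in monocytes (0.55) and Tnfaip3 in neutrophils (-0.014) for poly(I:C) over saline, and Tnfaip3 in monocytes for Gzmb-cko over Ncr1-cre (0.18). Ratios nearer 1 changed sign too. For poly(I:C) over saline Nfkbiz in monocytes kept its sign in 9 of 15 alternatives, Nfkbia in border macrophages in 12 and Zfp36l1 in neutrophils in 14. For Gzmb-cko over Ncr1-cre, Socs3 in monocytes kept its sign in 12 of 15 and Zfp36l1 in monocytes in 14. Why any of these ratios turned was not tested. The count of 5 genes at least 1.5-fold higher for poly(I:C) over saline became 3 under TMM scaling, median of ratios scaling, totals without mitochondrial, ribosomal and hemoglobin genes, and the mean of per-cell CPM. It became 0 in cells with no Fos UMI, 9 at a lower fold threshold and 1 at a fold of 2. The count of 0 genes lower for Gzmb-cko over Ncr1-cre became 1 with 2 UMIs of each marker, the stricter cell filter, Y-only cells, 3 further microglia markers or thinning, and 4 at a lower fold threshold. Under TMM scaling the counts higher for poly(I:C) over saline became 3 of 9 in border macrophages and 0 of 8 in monocytes. The count stayed 4 of 8 in neutrophils. Of all genes 3.9%, 5.09% and 16.4% were then higher in these gates, in that order. The cause of these changes was not tested. No paired analysis was possible because each group had 1 library. Depth limits Tnf outside microglia, where a gate held 17 to 130 Tnf UMIs, and Tnfaip3 in monocytes and neutrophils, with 24 to 43 UMIs.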
